A study of Mus musculus with 4 samples.

Results

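The T cell receptor alpha and delta gene segments were taken from the deposited gene table as every row whose symbol begins with Trav, Traj, Trac, Trdv, Trdd or Trdj. The rule matched 178 of 35275 genes, of which 109 were Trav, 59 Traj, 5 Trdv, 2 Trdd, 2 Trdj and 1 Trac, all on chromosome 14. It matched no Trdc row, and the delta constant gene was not analysed here. RNA came from splenic T cells of C57BL/6 mice that had been activated for 3 days by antibodies to CD3 and to CD28 together with IL-2. The 4 groups were wild type mice at 2 months, wild type mice at 8 months, Cers6 knockout mice at 2 months and Cers6 knockout mice at 8 months, and values are given in this order. The 4 groups share the strain and the stimulation, and Cers6 encodes ceramide synthase 6, an enzyme that joins fatty acyl chains to a sphingoid base. Throughout, knockout means a library so labelled. The series text speaks of duplicates, but the labels list 1 library for each group, so there was no replicate check within a group, and the labels do not say how many animals each library came from. Levels are CPM, the read count relative to library size and scaled for library composition, and intervals are at 95% and cover counting error only.

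A T cell builds its alpha chain gene by joining 1 of many Trav segments to 1 of many Traj segments, and splicing then links the joined exon to the constant gene Trac. The Trav segments lie upstream and the Traj segments lie next to Trac, with the delta segments between them, so that an alpha joint deletes the delta genes on that chromosome. Early joints use the Trav and Traj segments that face each other and later joints reach outwards in both directions, towards the 5′ Trav and the 3′ Traj segments. Many mouse Trav segments exist as near-identical copies because part of the cluster is duplicated, and the copies carry d or n in their names. In the text, distal Trav means the 36 segments farthest from the J segments, proximal Trav the 36 nearest to them, distal Traj the 19 segments nearest to Trac and proximal Traj the 19 nearest to the V segments.

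Library depth was 18145555 to 24239344 counts. Cers6 stood at 13.1, 32.0, 9.17 and 3.38 CPM, so the library labelled knockout at 2 months was at a log2 ratio of only -0.51 to wild type of that age, against -3.21 at 8 months. The reads of this gene thus do not by themselves show a loss in the library labelled knockout at 2 months, which bears on every genotype contrast at that age, and counts per gene do not tell which part of the gene was read. Xist, an RNA of the inactive X chromosome, was at 440.5 CPM in the library of wild type mice at 2 months and at 0.171 CPM or less in the other 3, so that library differs from the rest in more than age and genotype. The library of wild type mice at 8 months stood apart in its receptor genes. There, 98.6% of the Trbv counts (beta variable segments) came from Trbv14 with 44007 counts, against 178 to 219 Trbv14 counts elsewhere, and the beta constant gene Trbc2 reached 3283 CPM against 215.0 to 404.8 CPM. Its Cd4 level was 24.6 CPM against 114.7 to 201.7 CPM, whereas Cd8a was at 462.6, 556.1, 536.2 and 412.0 CPM over the 4 libraries. Its 6 NK cell markers summed to 5.33 CPM against 16.3 to 37.0 CPM, and its 7 neutrophil markers to 102 CPM against 0.174 to 4.54 CPM. The 10 T cell markers summed to 3141, 2632, 3020 and 2230 CPM and the 7 B cell markers to 2228, 3251, 1921 and 1212 CPM. B cell markers were thus measured in every library beside those of T cells, and were highest in wild type at 8 months. The part of these differences in the results on receptor segments was not tested, and each contrast that uses the library of wild type mice at 8 months has a counterpart without it.

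The segments that carry the results are shown first, because the counts depend on how well reads can tell them apart. The Trav stretches below are 60 bases that run 9 bases past the conserved cysteine codon at the start of CDR3 (capitals), the loop that contacts antigen, and come from GENCODE M21 on GRCm38, plus strand. Trav7d-5, the segment with the most counts in wild type mice at 8 months, is set beside other members of its subgroup.
Trav7d-5 (chr14:52836327-52836386): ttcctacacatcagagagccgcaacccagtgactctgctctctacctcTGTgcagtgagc
Trav7d-3 (chr14:52744780-52744839): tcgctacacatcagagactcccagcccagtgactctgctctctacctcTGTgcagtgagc
Trav7-3 (chr14:53443779-53443838): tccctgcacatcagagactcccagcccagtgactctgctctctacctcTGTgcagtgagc
Trav7-2 (chr14:53391083-53391142): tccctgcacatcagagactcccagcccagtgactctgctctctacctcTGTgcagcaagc
Trav7-4 (chr14:53461674-53461733): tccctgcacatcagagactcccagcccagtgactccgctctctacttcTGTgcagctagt
Trav7d-5 differs in this window from Trav7d-3 and from Trav7-3 at 6 bases each, from Trav7-2 at 8 and from Trav7-4 at 11.
The joining segments below, from the same source, are 5 Traj rows that stood out in a library of 8 month old mice and the delta segment Trdj1. Capitals mark the codons of the Phe-Gly-X-Gly motif (Trp in place of Phe also accepted), the conserved turn at the end of CDR3, which was found in frame in 42 of 59 Traj and in both Trdj sequences.
Traj58 (chr14:54157280-54157342): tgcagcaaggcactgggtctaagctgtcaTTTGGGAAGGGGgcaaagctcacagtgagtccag
Traj40 (chr14:54177921-54177981): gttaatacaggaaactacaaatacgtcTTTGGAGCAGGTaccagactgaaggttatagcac
Traj28 (chr14:54191661-54191725): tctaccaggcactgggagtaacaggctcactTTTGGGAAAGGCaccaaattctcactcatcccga
Traj2 (chr14:54217836-54217901): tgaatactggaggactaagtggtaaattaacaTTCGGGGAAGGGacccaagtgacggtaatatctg
Traj1 (chr14:54218814-54218842): gtgtgcagatagctgctccatctttcctg
Trdj1 (chr14:54123138-54123188): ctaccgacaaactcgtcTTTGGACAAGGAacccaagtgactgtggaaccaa
Traj1, 29 bases long in GENCODE, holds no such motif, and it was nevertheless the Traj row with the most counts in both libraries of 8 month old mice.

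Trac, the constant gene that every alpha chain transcript carries, was at a similar level in 3 libraries and lower in the knockout at 8 months. It had 3778, 3253, 2706 and 2629 counts, or 164.5, 153.5, 157.1 and 112.5 CPM. The knockout at 8 months was the low library, at a log2 ratio of -0.45 (-0.52 to -0.37) to wild type of the same age and -0.48 (-0.56 to -0.40) to the knockout at 2 months. At 2 months the genotypes differed by -0.07 (-0.14 to 0.01), an interval that includes 0. Cd3e, a signalling subunit of the same receptor complex, moved with it, and the ratio of Trac to Cd3e counts was 0.477, 0.474, 0.453 and 0.483. In a model with genotype and age as additive terms, Trac had a genotype effect of -0.25 (SE 0.26) with an adjusted p of 0.804 and an age effect of -0.27 (SE 0.26) with an adjusted p of 0.901 by edgeR's quasi-likelihood test. Fits that left out 1 library held genotype or age alone, without the other factor, and so are not adjusted for it. Genotype in such fits was -0.51 without the knockout at 2 months and -0.01 without the knockout at 8 months. Age was -0.52 without wild type at 8 months and -0.06 without the knockout at 8 months. In bulk RNA, fewer T cells and less Trac RNA per T cell cannot be told apart.

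**Figure D1:**
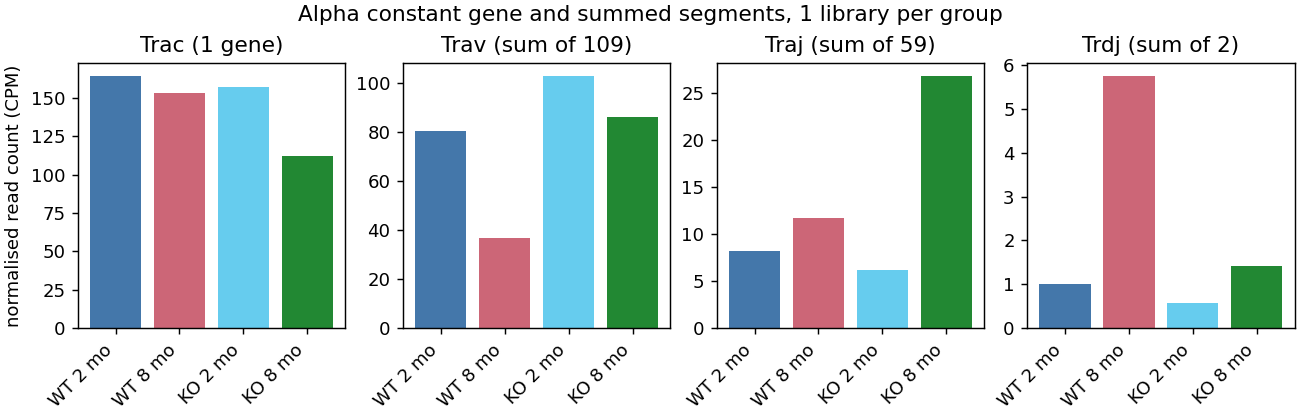
Normalised read count (CPM, linear axes from 0) of Trac and summed over the Trav, Traj and Trdj rows, 1 bar per library. Trac spans 112.5 to 164.5 CPM, the Trav sum is lowest in wild type at 8 months (36.95 CPM), the Traj sum highest in the knockout at 8 months (26.8 CPM), and the Trdj sum highest in wild type at 8 months (5.76 CPM).

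The variable segments, which encode most of the antigen-binding domain, were low relative to Trac in the library of wild type mice at 8 months. The 109 Trav rows together held 1843, 783, 1773 and 2014 counts, equal to 48.8, 24.1, 65.5 and 76.6 counts per 100 Trac counts. Wild type at 8 months was the low library, at 0.461 times (0.423 to 0.501) the level of wild type at 2 months, while the knockout at 8 months was at 0.837 times (0.785 to 0.893) the level of the knockout at 2 months. Between genotypes, the knockout exceeded wild type by 1.28-fold at 2 months (1.20 to 1.37) and by 2.33-fold at 8 months (2.15 to 2.54). Leaving Trav7d-5 out lowers wild type at 8 months from 36.95 to 23.8 CPM and raises that last ratio to 3.58-fold (3.25 to 3.96). Per kilobase of row length, the summed Trav level was 0.529, 0.261, 0.713 and 0.803 of the Trac level, so even where it was highest the Trav rows held fewer reads per base than the constant gene. Of the Trav rows, 79, 58, 78 and 76 had at least 1 count.

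The breadth of Trav use was alike in 3 libraries and narrow in wild type mice at 8 months. The inverse Simpson number, the number of equally used segments that would give the same evenness, was 43.7 (41.6 to 45.9), 7.15 (6.17 to 8.52), 43.2 (41.2 to 45.4) and 40.8 (38.5 to 43.3). Thinning every library to the 783 Trav counts of the shallowest left 42.4, 7.15, 41.9 and 39.6, so the low value remained at equal depth. Without the most counted segment of each library the numbers were 44.0, 30.3, 43.3 and 42.7. An exact two-sided permutation test over the 4 libraries gave p = 0.333 for age and p = 1 for genotype, and 0.333 is the smallest p that 2 against 2 libraries allow. Over the 84 Trav rows with a count, the Spearman correlation of counts was 0.876 to 0.918 among the other 3 libraries and 0.628 to 0.665 between each of them and wild type at 8 months, as a description over rows that share a library and its depth.

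Trav7d-5 (ENSMUSG00000076776, chr14:52835840-52836386 in the deposited table, 1385 kb upstream of Trac) was the most counted segment of that library. It had 7, 278, 8 and 20 counts. Wild type at 8 months was the only high library, and the other 3 held 20 counts or fewer. Its share of all Trav counts was 0.380%, 35.5% (32.2 to 39.0), 0.451% and 0.993%, and it ranked 53, 1, 52 and 39 among the Trav rows. The log2 ratio of 8 to 2 months was 5.05 (4.37 to 6.76) in wild type and 0.77 (-0.36 to 2.27) in knockout mice, and for knockout over wild type it was 0.49 at 2 months (-1.05 to 2.30) and -3.80 at 8 months (-4.67 to -3.28). In the additive edgeR model its age effect of 3.35 (SE 0.94) had an adjusted p of 0.268 and its genotype effect of -2.17 (SE 0.94) an adjusted p of 0.588, so neither passed. The authors' deposited table lists a log2 ratio of 5.40 with an adjusted p of 2.031e-15 for age in wild type mice and of -3.93 with an adjusted p of 2.212e-10 for genotype at 8 months, each from 1 library against 1.

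**Figure D2:**
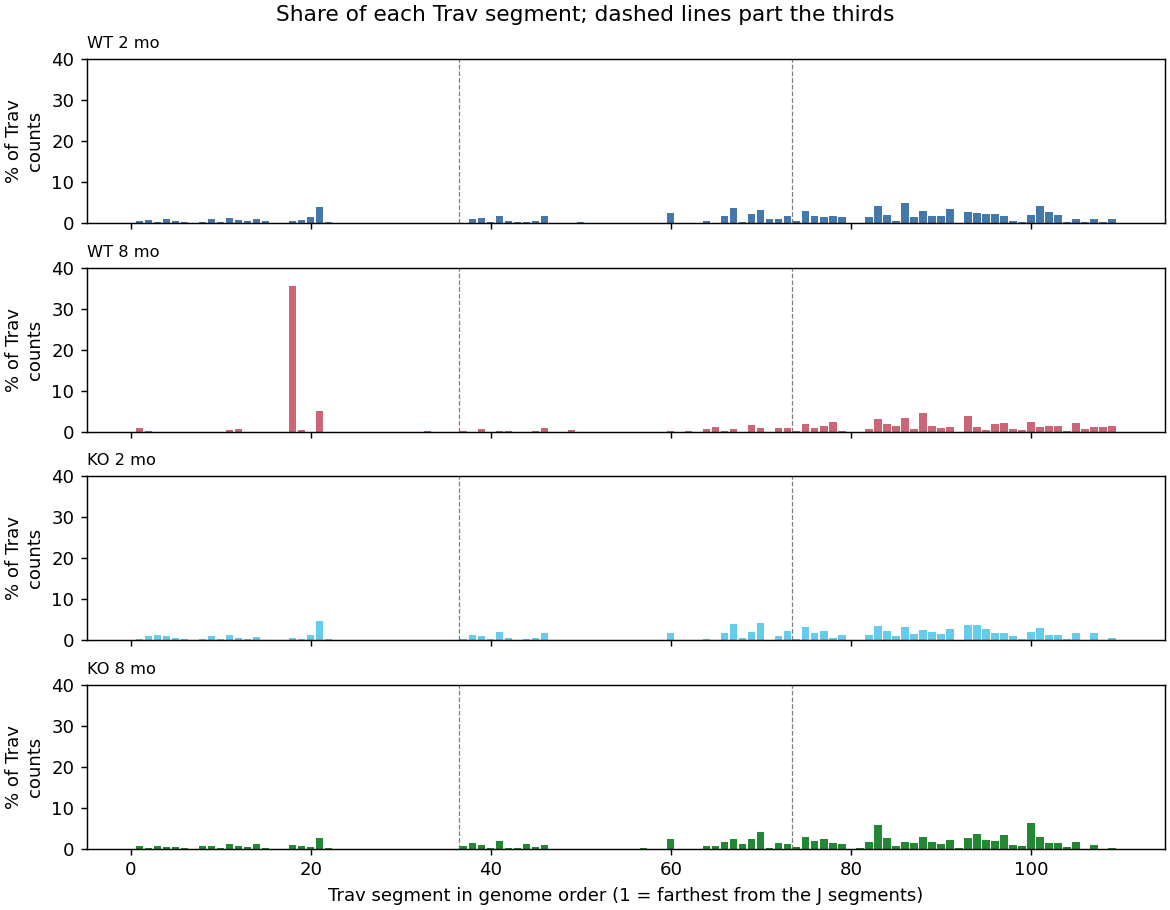
Share of each of the 109 Trav rows in all Trav counts of its library (%), in genome order from the end farthest from the J segments, 1 panel per library, with dashed lines between the distal, middle and proximal groups. The single tall bar in wild type at 8 months is Trav7d-5 at 35.5%, and no other bar in any panel exceeds the 6.31% of Trav8-2 in the knockout at 8 months.

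The rest of the Trav7 subgroup did not share the pattern of Trav7d-5. Trav7-2 had 57, 7, 73 and 80 counts, Trav7-4 had 53, 15, 59 and 60, and Trav7-3 had 30, 6, 40 and 21, each lowest in wild type at 8 months. Trav7d-3, 1 of the 2 members nearest to Trav7d-5 in the printed window, had 18, 0, 17 and 14 counts. With its copies pooled, Trav7 held 40.7% of the Trav counts in wild type at 8 months. The largest subgroup of the other libraries was Trav14, at 13.4% to 15.5%. These pooled shares still depend on how reads with several matches were counted. In 2 rows every stretch of 50 bases is shared with a segment that has no row. Both, Trav7d-5 and Trav7-2, belong to Trav7 and had counts.

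The place of Trav7d-5 in the cluster cannot be read from its counts, because GENCODE M21 lists a copy with the same sequence. Trav7n-5 (chr14:53146919-53147448, 1074 kb upstream of Trac) matches it with 0 differences over 340 bases, lies among the middle segments and was matched by no row under the rule. This kind of ambiguity is common in the cluster. Of the 109 Trav rows, 34 share every stretch of 50 bases with another alpha or delta segment, and 23 of these 34 had no count in any library. The 25 Trav rows without a count shared 95.5% to 100% of their stretches, whereas the 84 rows with a count shared a median of 50.3%. In 17 pairs of rows 1 member holds all stretches of the other: 7 pairs had no counts at all, 9 had counts in 1 row only and 1 had counts in both. Trav14d-1, for example, had 246 counts over the 4 libraries and its copy Trav14n-1 had 0. The sources used here do not say how reads with several matches were counted.

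**Figure D3:**
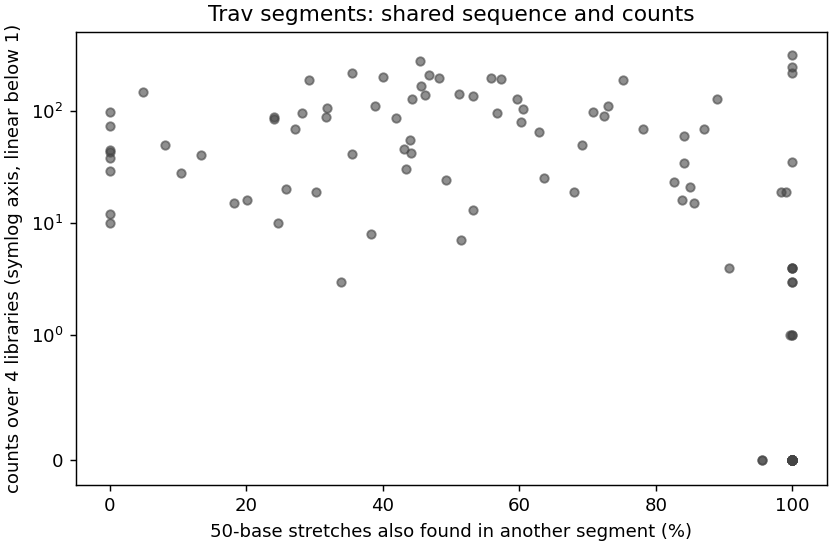
Counts over the 4 libraries (vertical, symmetric log axis, linear below 1) against the share of 50-base stretches that a Trav segment has in common with another segment (%), 1 point per Trav row. The 25 rows with no count all sit at 95.5% or more, and rows with a count spread from 0% to 100%.

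The distal share of Trav counts therefore depends on how such copies are treated. As counted, the distal segments held 15.4% (13.7 to 17.1), 43.2% (39.7 to 46.7), 15.6% (13.9 to 17.3) and 12.5% (11.1 to 14.0), highest in wild type at 8 months. Without Trav7d-5, the share in that library was 11.9%. Without the 34 rows that share all their stretches, it was 11.3% (9.85 to 12.9), 3.98% (2.38 to 6.22), 11.4% (9.89 to 13.1) and 8.86% (7.60 to 10.3), and wild type at 8 months became the lowest, so the order of the libraries turned with this choice, which was made after the data were seen. The middle segments held 25.01%, 9.32%, 26.4% and 25.3% and the proximal ones 59.6%, 47.5%, 58.0% and 62.2%. By these counts the proximal segments led in every library. However, every Trav row without a count lies in the distal or middle group. The middle and proximal shares were not recomputed without the copies. The exact two-sided permutation p for the distal share as counted was 0.667 for genotype and 1 for age, with 0.333 as the smallest possible.

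Outside Trav7d-5, the single segments were mostly low in wild type mice at 8 months. Of the 84 Trav rows with a count, 64 were lowest of the 4 libraries there, against 19.9% of all genes with a count. Among the 22 Trav rows with 2 CPM or more in any library, 21 were lowest there, against 25.1% of all genes at that level. The exception is Trav7d-5, which reached 2 CPM only in that library. The 21 rows passed the filter through other libraries alone, so their count is a description shaped by the filter. Trav9-2, which led the library of wild type mice at 2 months, had 88, 25, 59 and 34 counts, and Trav16 had 76, 9, 52 and 60. Trav14d-1, the leading row of the knockout at 2 months, had 72, 39, 81 and 54 counts, and Trav12-2 had 52, 35, 44 and 56. Each of these common segments was lowest in wild type at 8 months, by unequal amounts. The other libraries were not level either. Of the 84 rows with a count, 41 were highest in the knockout at 2 months, against 20% of all genes with a count.

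Trav8-2 and Trav13-1 led the knockout at 8 months. Trav8-2 had 38, 19, 34 and 127 counts and Trav13-1 had 78, 24, 62 and 116, in both cases most in the knockout at 8 months and fewest in wild type at 8 months. The Trav8-2 row is listed as a pseudogene of 2371 bases, against a median of 344 bases over the Trav rows, so its counts come from a longer stretch than those of the other segments. Per kilobase it ranked 58, 42, 56 and 37, and Trav13-1, at 15.2 CPM per kb, led the knockout at 8 months.

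**Figure D4:**
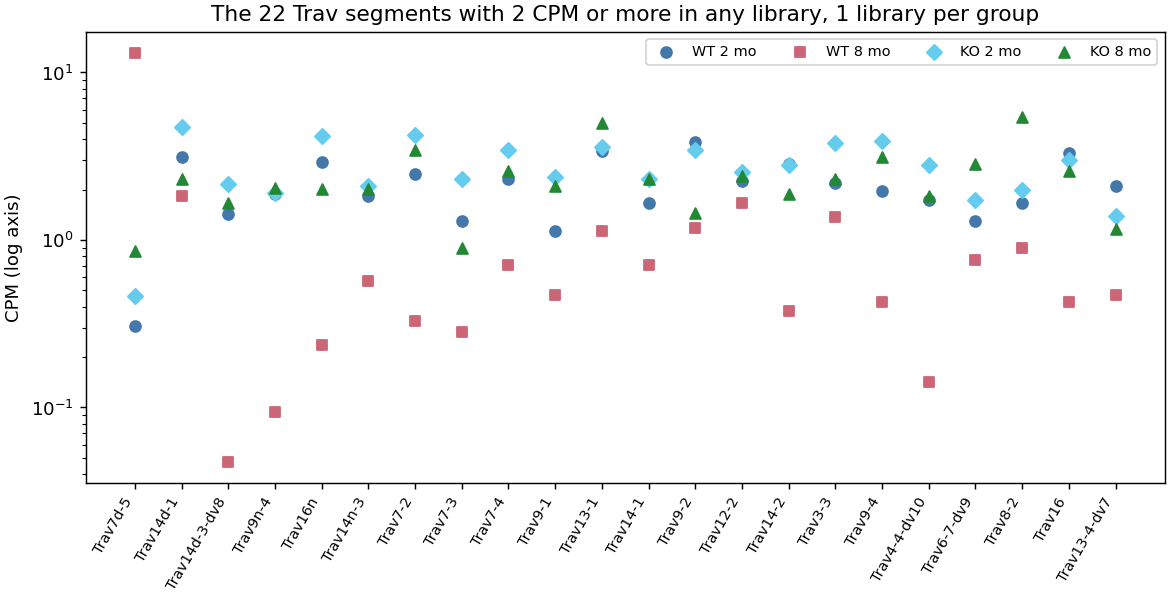
Level (CPM, log axis) of the 22 Trav rows that reached 2 CPM in any library, in genome order from left to right, 1 symbol per library. The square of wild type at 8 months lies lowest in 21 of the 22 rows and highest, at 13.1 CPM, for Trav7d-5. Those 21 rows reached 2 CPM only in other libraries.

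Contrasts of single libraries were read at 2-fold, using log2 CPM after adding a prior count of 2 and taking genes that reached 2 CPM in any library, as did 25 of the 178 members, namely 22 Trav, Trac, Traj1 and Trdj1. These counts describe pairs of libraries and carry no test. At 2 months, 1 member was higher in the knockout (Trav9-1, 26, 10, 41 and 49 counts over the 4 libraries, log2 1.01) and 0 were lower, against 0.923% and 2.08% of all genes, with a median of 0.39 over the members and -0.01 over all genes. Trav9-4 (0.96) and Trav7-3 (0.79) followed just under the threshold. The largest falls there were under it too, Trdj1 at -0.91, Trav13-4-dv7 at -0.55 and Trav9-2 at -0.16. Without the level filter, which 25 members passed, 15 of the 148 members with a count were higher and 19 lower. No share over all genes is given for that setting.

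At 8 months, 17 members were higher and 2 lower in the knockout, against 10.4% and 6.47% of all genes, and the member median was 1.73 against -0.00 over all genes. The highest were Trav14d-3-dv8 (33, 1, 37 and 39 counts, log2 3.64, 2.58 to 10.5), Trav9n-4 (43, 2, 33 and 48 counts, 3.51, 2.51 to 7.53) and Trav7-2 (3.05, 2.27 to 4.73), and the 2 lower ones were Trav7d-5 and Trdj1. In wild type mice, 16 members were lower and 3 higher at 8 than at 2 months, against 2.77% and 3.29% of all genes, with a median of -1.54 against -0.02. Trav14d-3-dv8 (-3.44), Trav9n-4 (-3.38) and Trav16n (67, 5, 72 and 47 counts, -3.19) had the lowest ratios, the first 2 resting on 1 and 2 counts in wild type at 8 months, and the 3 higher ones were Trav7d-5, Trdj1 and Traj1. Trav7d-5 and Trdj1 passed the level filter through wild type at 8 months alone, and Traj1 through the knockout at 8 months alone, so each had to be highest in that library. In wild type at 8 months only 3 of the 25 members reached 2 CPM, so the other 22 passed through another library and the counts of members above or below it are a description shaped by the filter. With a mean of 2 CPM over the 4 libraries in its place, a filter chosen after the data were seen, 13 members passed, of which 7 were higher and 1 lower in the knockout at 8 months (8.29% and 6.02% of all genes) and 7 lower and 1 higher with age in wild type (2.08% and 2.17%). No share over all genes is given for 5 CPM in any library. At that level, 1 was higher in the knockout at 8 months and 0 were lower with age in wild type. These 2 contrasts share the library of wild type mice at 8 months, so their lists are not independent of each other.

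In knockout mice, 3 members were lower and 2 higher at 8 months, against 4.71% and 10.3% of all genes, and library size alone as scaling gave 1 lower and 4 higher. The lower ones were Trav7-3 (-1.28), Trav9-2 (-1.18) and Trav16n (-1.02), and the higher ones Traj1 (1.67) and Trav8-2 (1.42), followed by Trdj1 at 0.89. The member median was -0.25 against -0.04 over all genes.

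The additive edgeR model, which takes the other factor's libraries as replicates, called 0 of the 62 tested members for genotype and 0 for age. Over all genes it called 0.0288% for genotype and 0.23% for age, and at an unadjusted p under 0.05 it had 10 members for genotype and 12 for age, against 8.36% and 8.22% of all genes. DESeq2 called 0 and 0, with 6 and 6 at that unadjusted level, against 5.94% and 5.84% of all genes. The smallest adjusted p among members was 0.152 for Traj40 and age and 0.543 for Trav3-1 and genotype. The fitted genotype effect was above 0 in 51 of the 62 and the fitted age effect in 13. The same count over all tested genes is not given. Both effects use the library of wild type mice at 8 months, in which most Trav rows were low. Leaving out the knockout at 8 months, the age fit called 21 members, 16 lower and 5 higher, out of 66 tested, against 4.95% of all genes. Leaving out wild type at 8 months it called 6 of 92, 5 higher and 1 lower, a smaller share than the 23.4% of all genes. Leaving out wild type at 2 months, the genotype fit called 1 member, Trav7d-5, as lower in the knockout, against 0.761% of all genes. These fits have fewer libraries, and the counts rest on which library is left out.

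The joining segments, each much shorter than a V segment, were sparsely counted and most numerous in the knockout at 8 months. The 59 Traj rows together held 189, 248, 106 and 626 counts, or 8.23, 11.7, 6.15 and 26.8 CPM. The knockout at 8 months was 4.35-fold (3.54 to 5.40) above the knockout at 2 months and 2.29-fold (1.97 to 2.66) above wild type at 8 months, while at 2 months the knockout was at 0.748 times (0.584 to 0.954) wild type. In wild type mice the ratio of 8 to 2 months was 1.42 (1.17 to 1.73). Of the 55 Traj rows with a count, 38 were highest in the knockout at 8 months, against 34.3% of all genes with a count. Per kilobase of row length, the Traj sum was 0.378, 0.630, 0.301 and 1.83 of the Trac level. In the knockout at 8 months the J rows thus held more counts per base of row length than the constant gene they are spliced to. Reads that reach past the ends of these short rows were not corrected for.

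The nuclear RNAs Malat1, Neat1 and Kcnq1ot1, picked with their values in view, were also highest in the knockout at 8 months, as were the 34.3% of genes given above. Malat1 was at 917.9, 1283, 898.4 and 2661 CPM, Neat1 at 885.7, 830.2, 486.5 and 1425 CPM and Kcnq1ot1 at 6.79, 9.72, 5.81 and 17.4 CPM. Xist, which is nuclear too, had 10117, 1, 0 and 4 counts. It was almost absent outside wild type at 2 months, so it cannot show whether nuclear RNAs share this pattern. The part of nuclear RNA in the Traj counts was not tested.

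Single Traj rows differed between the libraries. Traj1, the row nearest to Trac, had 15, 42, 10 and 48 counts and Traj2 had 8, 36, 2 and 34, so both were higher in the libraries of 8 month old mice of either genotype. Traj28 had 5, 2, 1 and 37 counts, high only in the knockout at 8 months. Traj40 had 0, 28, 0 and 12 counts and Traj58 had 0, 26, 0 and 1, so these 2 stood out in wild type at 8 months and had no count in either library of 2 month old mice, where a count of 0 allows up to 0.131 and 0.174 CPM. The leading rows at 2 months rested on few reads, with Traj3 at 16, 8, 2 and 20 counts and Traj11 at 3, 5, 12 and 14. Traj4 had 10, 0, 2 and 25 counts, Traj6 10, 0, 8 and 17, Traj20 1, 2, 8 and 17 and Traj25 10, 3, 0 and 8. Apart from Traj25, these rows had the most counts in the knockout at 8 months, before scaling for library size and composition. For Traj11 the authors' log2 ratio of 8 to 2 months in knockout mice was -0.23, so that row was not higher there after scaling.

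**Figure D5:**
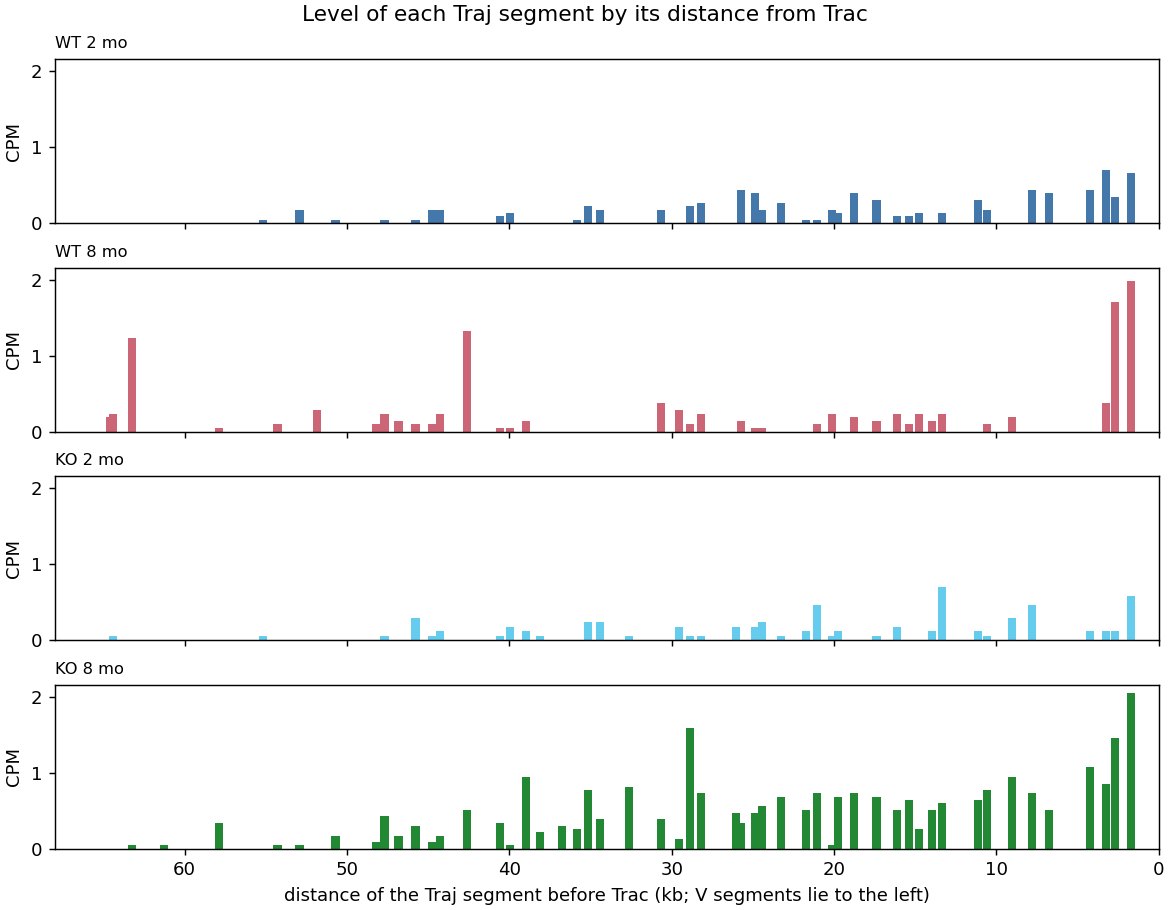
Level (CPM) of each Traj row against its distance upstream of Trac (kb), 1 panel per library, with the V segments to the left. In the knockout at 8 months 51 of the 59 rows carry reads, whereas wild type at 8 months shows isolated bars for Traj58 and Traj40 beside Traj2 and Traj1.

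By row, the Traj counts leaned towards Trac, least so in wild type at 8 months. Reads were not resolved into joints, so the shares below describe counts on rows. The distal Traj segments, next to Trac, held 59.8%, 50.8%, 57.6% and 53.8% of the Traj counts and the middle ones 33.9%, 25.8%, 34.0% and 39.6%. The proximal segments, which face the V cluster, held 6.35% (3.32 to 10.8), 23.4% (18.3 to 29.2), 8.49% (3.96 to 15.5) and 6.55% (4.74 to 8.78), so wild type at 8 months was high there, with Traj58 giving 26 of its 248 counts. The Spearman correlation of counts with distance from Trac over the 55 rows was -0.618, -0.0749, -0.468 and -0.754, as a description. Traj evenness was 24.0, 12.2, 19.9 and 32.0 in inverse Simpson numbers, and 22.2, 11.8, 19.9 and 25.7 after thinning to 106 counts. The exact two-sided permutation p for the proximal share was 1 for genotype and 0.667 for age.

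The delta segments, which most alpha beta T cells delete, were low throughout, and the sums over Trdj and over Trdv were highest in wild type mice at 8 months. The joining segment Trdj1 had 22, 114, 8 and 22 counts and Trdj2 had 1, 8, 2 and 11. Trdj1 was high in wild type at 8 months alone, at a log2 ratio of 2.38 to wild type at 2 months and of -2.40 for knockout over wild type at 8 months. In the additive edgeR model its age effect had an adjusted p of 0.488 and its genotype effect 0.563, and the authors' deposited table lists adjusted p-values of 7.419e-04 and 4.022e-04 for those 2 contrasts. The diversity segment Trdd2 had 0, 6, 0 and 0 counts and Trdd1 had none. The 5 variable segments summed to 64, 106, 43 and 76 counts, of which Trdv2-2 had 30, 38, 15 and 10, Trdv5 10, 26, 8 and 15, Trdv4 7, 23, 7 and 25, Trdv1 16, 19, 13 and 26, and Trdv2-1 a single count, in wild type at 2 months. Trdj2 and Trdv1 were highest in the knockout at 8 months, unlike Trdj1.

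The partners of delta chains did not all move the same way. Among the gamma constant genes, Tcrg-C4 had 59, 103, 28 and 21 counts, most in wild type at 8 months, while Tcrg-C1 had 84, 44, 31 and 24 and Tcrg-C2 had 110, 34, 32 and 35, most in wild type at 2 months. The 7 gamma delta T cell markers that matched a row summed to 108.2, 132.1, 87.5 and 89.7 CPM, but most of this was Blk, a kinase that B cells also express, at 93.7, 116.8, 79.4 and 82.1 CPM. The other 6 summed to 14.5, 15.3, 8.07 and 7.62 CPM, higher in both wild type libraries than in both knockout ones. Trdj1 was thus highest in the library in which Tcrg-C4, but not Tcrg-C1 or Tcrg-C2, was highest.

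The segments of the invariant chains were close to the detection limit. Trav11 and Traj18, which form the alpha chain of invariant NKT cells, had 1, 0, 1 and 2 and 3, 0, 2 and 16 counts. Trav11d had 0. All 50-base stretches of Trav11 and of Trav11d are shared, so their counts depend on how reads with several matches were counted. Trav1 and Traj33, which form the alpha chain of MAIT cells, had 7, 7, 4 and 11 and 5, 0, 4 and 18 counts. Traj18 and Traj33 were thus both highest in the knockout at 8 months, where the Traj sum as a whole was highest, and their V partners stayed at 11 counts or fewer.

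Other genes of the receptor, its assembly and the locus were read at the same 2-fold threshold. Of 9 receptor partner genes with 2 CPM or more, 0 were higher and 1 lower in the knockout at 2 months (Tcrg-C2), and 0 were higher and 3 lower at 8 months (Trbc1, Trbc2 and Tcrg-C4), where 6.47% of all genes were lower. With age, Trbc2 was higher and Tcrg-C2 lower in wild type mice, and none passed 2-fold in knockout mice. The ratio of summed beta constant counts to Trac counts was 3.86, 23.9, 3.55 and 3.15, so the beta constant counts were high in wild type at 8 months while Trac was not. The other signalling subunits Cd3d, Cd3g and Cd247 differed by less than 2-fold in each contrast. Of 12 V(D)J recombination genes at that level, Dclre1c, the nuclease that opens coding ends, was higher and the DNA-bending proteins Hmgb1 and Hmgb2 were lower in the knockout at 8 months, against wild type of that age and against the knockout at 2 months, and none passed 2-fold in the other 2 contrasts. Hmgb2 was at 1041, 909.1, 1094 and 292.2 CPM. Rag1, a recombinase subunit, had 2, 4, 4 and 0 counts, and Rag2, its partner, had none in any library. Dntt, which adds bases at the joints, had 311, 280, 244 and 206 counts. Of 15 regulators of the alpha locus, the cohesin subunit Rad21 was lower at 8 than at 2 months in the knockout (-1.12), and none passed 2-fold in the other 3 contrasts. Of 11 genes beside the locus, the metalloproteinase Mmp14 was lower in the knockout at 8 months (-1.37) and higher at 8 months in wild type (1.41). The genes named from these lists were picked with their values in view. The nearest neighbour downstream of Trac, Dad1, stood at 117.5, 116.9, 95.6 and 73.9 CPM. The additive test called 0 genes of these 4 lists for genotype and 0 for age.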

How the data were processed

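RNA from 4 libraries was analysed, 1 per group, and groups came from the labels. The deposited table holds raw read counts per gene, per the file headers, with coordinates and row lengths. The submitters' processing notes name CASAVA, STAR, GRCm38 and mm10. The counter, its treatment of multiply matching reads, the strandedness and the library kit are unstated in those sources. The authors' log2 ratios per contrast and adjusted p-value columns, per the file headers, were quoted only where named.

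CPM used TMM factors (0.947, 0.968, 0.949 and 1.15) from edgeR 4.0.16 in R 4.3.3. Tests used edgeR quasi-likelihood with genotype and age as additive terms on 13906 genes past filterByExpr, Benjamini-Hochberg adjusted at 0.05, with 1 residual degree of freedom. DESeq2 1.42.0 was an alternative. A genotype effect that differs between ages counts as spread in this model. Single-library contrasts used log2 CPM with a prior count of 2, and their intervals (scipy 1.17.1, exact binomial, Clopper-Pearson for shares) do not include it, and intervals of the inverse Simpson number are delta-method approximations. A count of 0 allows 3 counts, or 0.128 to 0.174 CPM.

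Sequences and copies came from GENCODE M21, which held 172 of the 178 identifiers, and 6 more, among them Trav7d-5, matched by symbol and overlapping position. Coordinates of sequences are GENCODE's and those of rows the deposited table's. Named segments are Trac, the delta segments with a count, the 3 Trav and 3 Traj rows with most counts per library (ties in counts not all named), the invariant chain segments and the 3 highest and 3 lowest ratios per contrast, and the Trav7 copies, Trav3-1 and side genes were added to these once values had been seen. The members and lists were chosen with earlier results of these data known.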

Additional observations from a re-analysis of the deposited data

Results flagged for a closer look

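These 3 results pointed opposite ways under the same contrast, with both counting intervals clear of 0, and the differences were not tested because each group has 1 library. The Traj sum was lower in the knockout at 2 months (log2 -0.42, -0.78 to -0.07) and higher at 8 months (1.20, 0.98 to 1.41), a difference of 1.61. Trav13-1 was lower at 8 than at 2 months in wild type mice (-1.51, -2.31 to -0.91) and higher in knockout mice (0.45, 0.01 to 0.93), a difference of 1.96. Trav8-2, the row of 2371 bases, was lower with age in wild type mice (-0.82, -1.76 to -0.05) and higher in knockout mice (1.42, 0.91 to 2.05), a difference of 2.24. Each of the 2 age comparisons uses the library of wild type mice at 8 months, in which most Trav rows were low.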

How the results depend on the processing

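No paired analysis was possible because each group has 1 library and the labels carry no replicate numbers. With 1 library a group, intervals cover counting error alone, and ratios against rows of few counts have wide intervals. Values are in the order of the report. The distal Trav share with the rows parted at their midpoint instead was 23.0% in wild type and 23.9% in knockout at 2 months and 20.2% in knockout at 8 months; without each library's top row it was 11.9% in wild type at 8 months and 11.5% in knockout at 2 months; without rows that share all their 50-base stretches it was 11.3%, 3.98%, 11.4% and 8.86%, which moves wild type at 8 months from highest to lowest, an alternative chosen after the data were seen. So was leaving Trav7d-5 out of the summed Trav level, 23.8 CPM in wild type at 8 months. The top share over pooled subgroups was 15.5%, 40.7%, 14.8% and 13.4%. Shannon numbers were 53.5, 20.5, 52.3 and 52.2 for Trav and 28.7, 19.8 and 38.4 for Traj in all but the knockout at 2 months, whose thinned counterpart at 8 months was 25.7. The distal Traj share parted at the midpoint was 83.6%, 61.3%, 74.5% and 75.7%, without the top row 40.8% in wild type at 8 months, and per length 59.3% there and 59.0% in knockout at 8 months. Without a level filter the 2-fold counts, higher then lower, were 15 and 19 for genotype at 2 months, 89 and 13 at 8 months, 22 and 65 for age in wild type and 44 and 14 in knockout. These are out of 148 members with a count, most of them under 2 CPM in every library. No share over all genes is given for this setting or for 5 CPM. At 5 CPM the 2-fold counts were 0 higher for genotype at 2 months, 1 higher at 8 months, 0 lower for age in wild type, and 1 higher and 0 lower in knockout. With a mean of 2 CPM, also chosen after the data were seen, they were 0 higher for genotype at 2 months, 7 and 1 at 8 months, 1 and 7 for age in wild type and 1 higher in knockout. A prior count of 10 gave 0 higher and one of 0.5 gave 1 lower for genotype at 2 months, and library size alone gave 4 higher and 1 lower for age in knockout. The additive age test without a filter called 1 member, Trav7d-5. Leaving out each library in turn it called 0 to 21 for age and 0 to 1 for genotype (Trav7d-5, without wild type at 2 months), and a lone library is then assumed to vary like the others. Fewer samples entered these fits, and the cause of the other changes was not tested.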
